A study of Homo sapiens with 6 samples.

Results

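The genes described here are 45 genes of nucleic acid sensing and of the interferon response, among 36532 genes measured in 4 cell lines of atypical teratoid rhabdoid tumor (AT/RT). They were chosen by symbol, without a cutoff on their values, and each symbol matched 1 gene identifier. AT/RT is a malignant brain tumor of young children in which the chromatin remodeling subunit SMARCB1 is usually lost, and the established lines from such tumors are CHLA 02, CHLA 04 and CHLA 05 as well as CHLA 06. Cells were grown with EGF, basic FGF and B-27, the labels name no treatment, and total RNA was sequenced. A single library was made of CHLA 02 and of CHLA 05, and 2 technical replicates of CHLA 04 and of CHLA 06, which gives 6 libraries. Every line was thus 1 biological sample, and the study describes all 4 lines as lacking SMARCB1 expression. No cells with SMARCB1 restored, no normal cells and no cells given interferon or a virus are among the libraries, and CHLA 06 belongs to a molecular subgroup of AT/RT other than that of the remaining lines.

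Cells carry sensors that bind RNA or DNA in the wrong place or of the wrong form, including RNA made from endogenous retroviruses. The sensors signal through adaptors to transcription factors of the IRF family, which switch on interferon genes. Secreted interferon binds its receptors, and a complex that includes STAT2 and IRF9 then binds interferon-stimulated response elements and raises a large set of antiviral genes. ADAR edits the cell's own double-stranded RNA and so lowers the supply of RNA that the sensors can bind.

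RNA levels are given as TPM, the length-corrected share of all transcripts scaled to the same total in every library, summed over the transcripts of a gene. Ratios of reads are given as RPM, the reads of a gene scaled to the reads of its library. Values for the 6 libraries follow one order throughout, namely CHLA 02, CHLA 04 (2 libraries), CHLA 05 and CHLA 06 (2 libraries). A gene was called highest or lowest in a line when every library of the line was at least 1 unit above or below every other library on the scale log2(TPM + 2). A gene was tested when it had at least 1 TPM in a library, which 16343 genes did. The background given with each count is the percentage of those genes that met the same rule. With 1 biological sample per line no test between lines was possible and no p-values are given, and the calls describe these libraries. Technical replicates of CHLA 04 differed by a median of 0.19 on the log2 scale over the 45 genes, with a largest difference of 0.91 for DHX58. Those of CHLA 06 differed by a median of 0.17, with a largest difference of 0.59 for IRF1. No gene of the 45 reached 1 unit between technical replicates. In bulk RNA a lower share of expressing cells and less RNA per cell cannot be told apart.

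Each library held 10265899 to 20520229 reads on transcripts, as recovered from the TPM values, and the lowest was replicate 1 of CHLA 04. SMARCB1 RNA was present at 13.5 to 26.2 TPM in the 6 libraries, although the study describes all the lines as lacking SMARCB1 expression. Protein was not measured, and whether this RNA codes for an intact protein was not tested. Of the neural markers, VIM was at 4629 to 19464 TPM and NES at 5.21 to 27.6 TPM, while SOX2 reached 4.03 TPM in CHLA 05 and was under 0.5 TPM elsewhere. Of 10 leukocyte markers, 9 were below 1 TPM in every library, and AIF1, CD3E, CLEC4C and MS4A1 were at 0 in all of them. The exception was CD68 at 0.236 to 22.6 TPM, and the summed level of the list was 6.52, 1.31, 0.763, 0.769, 6.51 and 22.9 TPM. Of 4 endothelial markers only VWF reached 1 TPM, at 3.70 and 2.06 TPM in CHLA 04, and the list summed to 0.181 to 4.06 TPM. The part of such cells in the differences below was not tested.

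The CHLA 02 library stood apart in another way. Its profile lay between those of the other lines for 72.4% of the tested genes, against 39.3% to 51.6% when each other line was placed in the same manner. A sum of 0.302 times CHLA 04, 0.0493 times CHLA 05 and 0.631 times CHLA 06 gave CHLA 02 with Pearson's r = 0.982 across 16343 genes on the log2 scale. The corresponding sums for CHLA 04, CHLA 05 and CHLA 06 had r = 0.907, 0.890 and 0.928. The sum for CHLA 06 was 0.992 times CHLA 02 with no part of CHLA 04 or CHLA 05. By its subgroup, however, CHLA 02 is placed with CHLA 04 and CHLA 05. There were 68 genes of at least 30 TPM in CHLA 06 and at most 0.5 TPM in CHLA 04 and CHLA 05, and all 68 had at least 6.75 TPM in CHLA 02, at a median of 0.486 of the CHLA 06 level. Conversely, 80 genes were at 30 TPM or more in both CHLA 04 and CHLA 05 and near absent from CHLA 06, and all 80 had at least 3.32 TPM in CHLA 02. A line that carries both programs and a library that holds RNA of several lines cannot be told apart from these values. The counts of calls are therefore also given without CHLA 02.

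**Figure D1:**
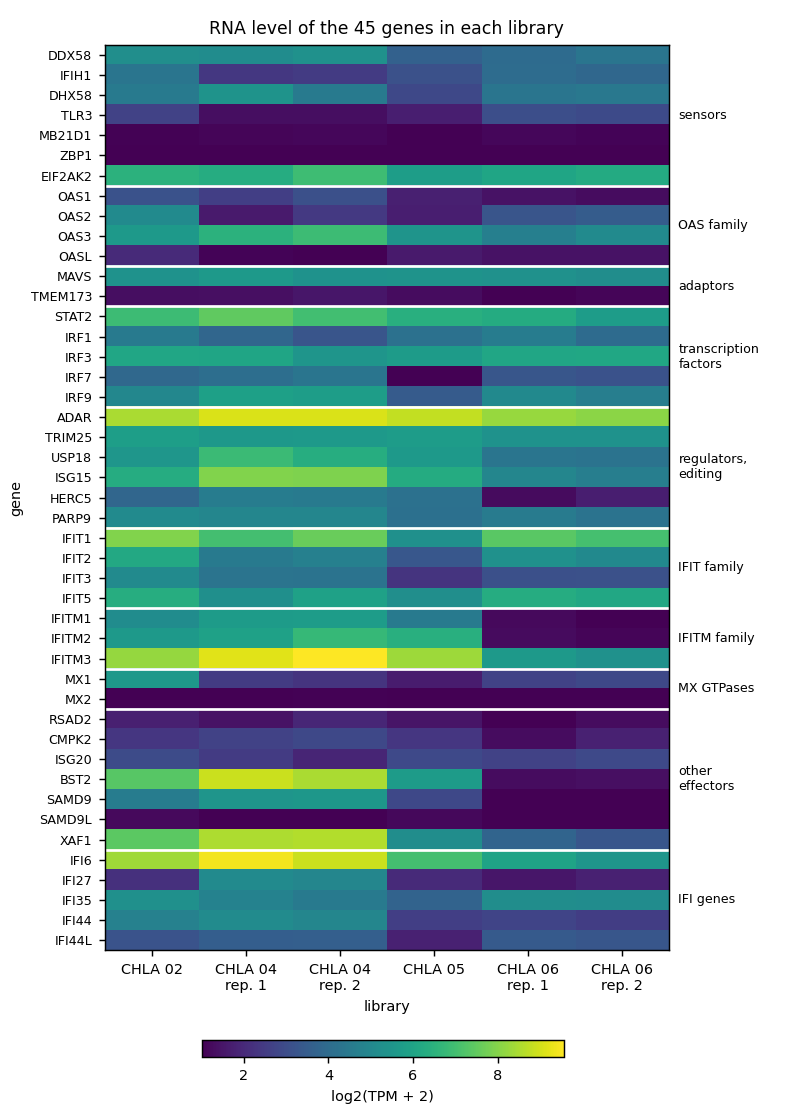
RNA level of each of the 45 genes (rows, grouped by role) in each library (columns), as log2(TPM + 2) on the color scale. CHLA 06 is dark for IFITM1, IFITM2, BST2, SAMD9 and HERC5, CHLA 05 is dark for IRF7, and MB21D1, ZBP1, TMEM173, MX2 and SAMD9L are dark in all 6 libraries.

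The genes were expressed at very different levels. Of the 45, 28 had at least 1 TPM in all 6 libraries, 12 did so in only some of the libraries, and 5 in none. Those 28 were 70% of the 40 genes tested, near the background of 73%. The 5 that were below 1 TPM throughout and were not tested are MB21D1, ZBP1, TMEM173, MX2 and SAMD9L. Levels of at least 10 TPM in all libraries were found for 16 genes, led by ADAR at 268 to 547 TPM. Of the 40 genes tested, 28 (70.0%) were apart between at least 2 lines, against a background of 34.7%. The median difference between the highest and lowest line was 1.99 log2 units over the 40 genes and 0.862 over all genes tested. Without CHLA 02, 27 genes were apart (background 31.8%), IFIT5 being lost, and the median differences were 1.72 and 0.815. On the log2 scale the median level of the 45 genes was 5.12 for CHLA 02 and 4.95 for CHLA 04, against 3.45 for CHLA 05 and 3.37 for CHLA 06. Those medians include the 5 genes below 1 TPM, which the filter removes from the general background. Over the 40 genes tested the medians by library were 5.199, 5.22, 5.14, 3.95, 4.02 and 3.93, against 4.45, 4.49, 4.44, 4.56, 4.27 and 4.32 over all tested genes. The tested genes were thus above the general median in CHLA 02 and CHLA 04 and below it in CHLA 05 and, by less, in CHLA 06. The order of CHLA 05 and CHLA 06 over the 45 genes was not stable, since quantile normalization and median-ratio scaling placed CHLA 06 above CHLA 05.

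**Figure D2:**
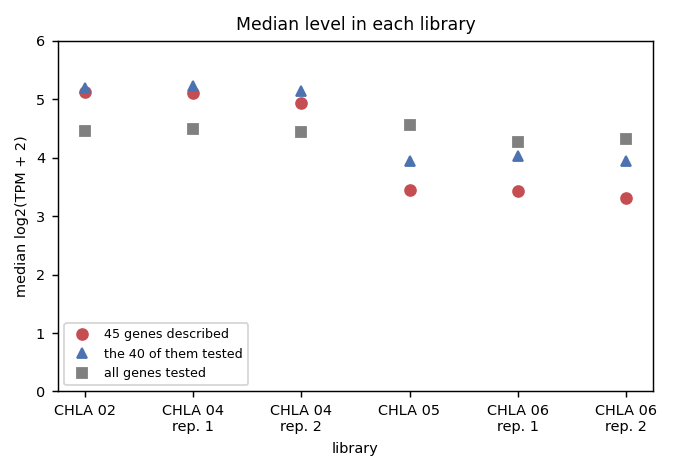
Median of log2(TPM + 2) in each library for the 45 genes (circles), for the 40 of them that were tested (triangles) and for all 16343 genes tested (squares). The triangles are above the squares in CHLA 02 and in both CHLA 04 libraries, at 5.14 to 5.22, and below them in CHLA 05 and CHLA 06, at 3.93 to 4.02.

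The calls fell on different lines for different genes. Lowest in CHLA 06 were 10 of the 40 tested genes (background 4.2%), and lowest in CHLA 05 were 6 (background 0.838%). Highest in CHLA 04 were 4 genes (background 1.34%), and highest in CHLA 02 were 2 (background 0.0612%). No gene of the 40 was lowest in CHLA 02 (background 0.00612%), lowest in CHLA 04 (2.04%), highest in CHLA 05 (4.41%) or highest in CHLA 06 (0.961%). Between the lines with technical replicates, 15 genes were higher in CHLA 04 than in CHLA 06 (background 11.4%), and IFIH1 and TLR3 alone were higher in CHLA 06 (background 9.47%). Without the CHLA 02 library, the same 10 genes were lowest in CHLA 06 and the same 6 in CHLA 05. The number highest in CHLA 04 then rose from 4 to 10 (background 3.38%), and TLR3 became highest in CHLA 06 (background 6.16%).

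Promoters of some genes in the largest groups of calls are shown, picked among those that hold the same short element. RefSeq start sites of GRCh38.p14 were matched for 33 of the 45 genes, and each window runs from 250 bases before the start to 50 bases after it. Capitals mark the core of an interferon-stimulated response element, GAAANNGAAA, or TTTCNNTTTC where it lies on the opposite strand, and overlapping cores run together. The first 5 promoters belong to genes lowest in CHLA 06, and the last 2 to genes lowest in CHLA 05.
BST2, chr19:17405581-17405880, minus strand: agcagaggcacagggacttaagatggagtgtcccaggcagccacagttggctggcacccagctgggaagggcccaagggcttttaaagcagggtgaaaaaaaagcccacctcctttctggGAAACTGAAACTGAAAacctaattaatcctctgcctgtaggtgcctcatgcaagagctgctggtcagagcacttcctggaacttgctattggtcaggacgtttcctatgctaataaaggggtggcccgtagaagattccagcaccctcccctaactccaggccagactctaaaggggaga
IFITM1, chr11:313790-314089, plus strand: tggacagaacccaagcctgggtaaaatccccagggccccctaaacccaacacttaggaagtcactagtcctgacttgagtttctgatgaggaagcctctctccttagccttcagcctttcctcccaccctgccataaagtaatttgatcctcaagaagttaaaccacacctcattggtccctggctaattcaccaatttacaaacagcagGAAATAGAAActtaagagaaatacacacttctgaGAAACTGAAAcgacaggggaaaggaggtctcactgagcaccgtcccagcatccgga
SAMD9, chr7:93117930-93118229, minus strand: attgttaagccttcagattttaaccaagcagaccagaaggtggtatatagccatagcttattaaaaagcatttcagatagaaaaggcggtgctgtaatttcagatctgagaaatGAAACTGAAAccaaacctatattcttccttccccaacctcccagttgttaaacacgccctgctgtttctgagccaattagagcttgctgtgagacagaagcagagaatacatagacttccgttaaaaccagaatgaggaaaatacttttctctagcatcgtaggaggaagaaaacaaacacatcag
HERC5, chr4:88456869-88457168, plus strand: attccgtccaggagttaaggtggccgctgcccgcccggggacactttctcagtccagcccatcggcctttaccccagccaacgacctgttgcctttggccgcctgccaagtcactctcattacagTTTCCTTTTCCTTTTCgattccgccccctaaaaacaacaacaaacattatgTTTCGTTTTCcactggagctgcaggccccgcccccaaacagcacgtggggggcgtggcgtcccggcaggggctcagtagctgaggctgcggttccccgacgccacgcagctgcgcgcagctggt
ISG15, chr1:1013247-1013546, plus strand: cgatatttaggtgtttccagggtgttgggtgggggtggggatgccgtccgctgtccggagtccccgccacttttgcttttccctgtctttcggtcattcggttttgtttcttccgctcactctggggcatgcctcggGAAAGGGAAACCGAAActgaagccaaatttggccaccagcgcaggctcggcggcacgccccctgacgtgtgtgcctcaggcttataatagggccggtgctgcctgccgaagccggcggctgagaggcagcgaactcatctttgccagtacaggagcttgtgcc
IFIT1, chr10:89392373-89392672, plus strand: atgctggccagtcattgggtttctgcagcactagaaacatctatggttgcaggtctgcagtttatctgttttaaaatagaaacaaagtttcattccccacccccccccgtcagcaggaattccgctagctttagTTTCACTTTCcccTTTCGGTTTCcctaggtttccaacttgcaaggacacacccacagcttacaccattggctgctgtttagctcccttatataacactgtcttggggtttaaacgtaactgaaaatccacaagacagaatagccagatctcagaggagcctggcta
IFI44L, chr1:78620198-78620497, plus strand: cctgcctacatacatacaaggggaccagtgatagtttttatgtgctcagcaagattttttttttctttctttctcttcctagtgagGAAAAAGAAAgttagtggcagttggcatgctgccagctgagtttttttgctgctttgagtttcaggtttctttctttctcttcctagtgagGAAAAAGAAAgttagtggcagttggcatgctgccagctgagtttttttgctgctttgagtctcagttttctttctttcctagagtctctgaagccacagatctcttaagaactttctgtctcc
The core was in at least 1 promoter of 21 of the 33 genes (63.6%), against 4.38% of the 27305 genes in the table. The genes were chosen for sensing and the interferon response, so that a high share lies in the choice of the list. By promoter it was in 25 of 45, and in 3.57% of all 35116. In BST2 it began 130 and 124 bases before the start site, in SAMD9 136 bases before it, and in IFITM1 40 and 6 bases before it. Of the 10 genes lowest in CHLA 06, 8 had a promoter in the table and 7 of those held the core, XAF1 being the one without it. The XAF1 window holds GAAACGAAA, with 1 base between the repeats, which the pattern used does not count. Windows of DDX58, OAS1, TRIM25, CMPK2 and IFI35, likewise counted as without the core, hold repeats with the same spacing on one strand or the other. This spacing was not counted over all genes. Of the 6 genes lowest in CHLA 05, 3 had a promoter in the table, and IFIT1 and IFI44L held the core while IRF9 did not. The element was therefore in promoters of both groups. The core of a gamma-activated site, TTCNNNGAA, reads the same on both strands and was in promoters of 9 of the 33 genes (27.3%), against 9.38% of all genes. It was found in IRF1, IRF9, TLR3, OAS1, IFITM1, MX1, BST2, IFI27 and IFI35. These matches describe letters in a window and show no binding. Promoters of DHX58, MB21D1, ZBP1, OAS2, OASL, TMEM173, IRF3, IRF7, USP18, IFIT2, IFITM2 and MX2 were not analysed here.

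Among the sensors of the list, DDX58, IFIH1, DHX58 and EIF2AK2 were present in every line, whereas MB21D1 and ZBP1 were near absent. DDX58, known as RIG-I, binds RNA with a 5′ triphosphate and was at 35.9, 34.1, 38.7, 10.6, 14.02 and 18.1 TPM. It was high in CHLA 02 and CHLA 04 and low in CHLA 05 and CHLA 06, without overlap between these pairs of lines. IFIH1, or MDA5, binds long double-stranded RNA and was at 18.1, 3.20, 3.59, 6.82, 14.4 and 12.7 TPM. Its lowest line was CHLA 04, where DDX58 was highest, and CHLA 04 stood 1.90 log2 units below CHLA 02. TLR3, the endosomal receptor for double-stranded RNA, was at 4.45, 0.494, 0.487, 1.26, 6.38 and 5.55 TPM. The reads behind TLR3 were 4 and 17 in CHLA 04 and 251 and 236 in CHLA 06, a ratio of 16.3 with a 95% interval of 10.5 to 26.6 that covers counting error only. DHX58, or LGP2, a regulator of the other RIG-I-like receptors, was at 21.0, 40.4, 20.5, 5.31, 18.04 and 19.4 TPM. CHLA 05 was 4.94-fold below CHLA 04 in RPM (interval 3.78 to 6.57) and below every other library. EIF2AK2, the kinase PKR that halts translation on binding double-stranded RNA, was at 53.2 to 119.6 TPM, and the lines differed by at most 0.82 log2 units. Of the sensors of DNA, MB21D1, or cGAS, had 0 to 4 reads per library and at most 0.231 TPM. ZBP1, which binds Z-form nucleic acid, had no read in any library, where the floor of 3 reads was 0.146 to 0.292 RPM.

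The OAS enzymes make 2′-5′ oligoadenylates on binding double-stranded RNA. OAS3, which needs the longest RNA, was the highest at 47.7, 88.1, 115, 41.6, 24.1 and 32.7 TPM, and CHLA 04 was above CHLA 06 without overlap. OAS2 was at 32.3, 1.05, 3.31, 1.33, 7.56 and 9.17 TPM and was called highest in CHLA 02. OAS1 was at 7.04, 4.01, 6.58, 1.38, 0.690 and 0.410 TPM, with 11 reads in all in CHLA 06. OASL, a family member without the synthetic activity, did not exceed 2.09 TPM and was not apart between any lines on the scale log2(TPM + 2). It had 34 reads in CHLA 02 and 2 in CHLA 04, a ratio of 28.7 in RPM (interval 7.37 to 247). With a pseudocount of 1 or 0.1 OASL was apart. The family therefore had no common order of lines: OAS2 was higher in CHLA 06 than in CHLA 05, whereas OAS1 and OAS3 had their lowest mean in CHLA 06.

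The adaptors split as the sensors did. MAVS, the mitochondrial adaptor of RIG-I and MDA5, was at 39.9, 48.3, 39.7, 40.7, 38.9 and 35.2 TPM, and its 0.23 log2 units between the highest and lowest line was the smallest difference among the tested genes of the list. TMEM173, or STING, the adaptor downstream of cGAS, was at 0.467, 0.552, 0.836, 0.440, 0 and 0.186 TPM. The STING gene had 0 to 6 reads in a library, and of its neighbors ECSCR, 12.8 kb away, was at 8.09, 4.80, 14.6, 2.52, 0 and 0 TPM and UBE2D2, 43.5 kb away, at 84.0 to 297 TPM.

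Of the transcription factors, IRF7 differed most. IRF7, which amplifies the production of interferon and is itself interferon-inducible, was at 12.8, 15.2, 18.3, 0, 7.74 and 6.96 TPM. CHLA 05 had no read on any of its transcripts, and the other libraries had 89 to 176, so that CHLA 04 was at least 53.6-fold higher in RPM when CHLA 05 was placed at the floor of 3 reads. The gene PHRF1, whose annotated end is 0.331 kb from IRF7, was at 39.98 TPM in CHLA 05 and at 30.8 to 94.4 TPM in the other libraries. IRF9, the DNA-binding subunit of the complex formed on type I interferon, was at 29.0, 56.2, 52.8, 8.94, 32.0 and 23.3 TPM, lowest in CHLA 05. Part of the reads of IRF9 may belong to a gene on the same strand with which it shares exonic bases. STAT2, its partner, was at 117, 178, 123, 83.5, 76.0 and 51.3 TPM and no line was apart from another. The most abundant STAT2 transcript, with no defined coding sequence, held 34.5% to 46.6% of that level. The transcript coding for 851 amino acids held 2.57% to 9.75%. IRF3, which is constitutively made and acts first after sensing, was at 42.4 to 67.1 TPM with 0.39 log2 units between the lines. IRF1 was at 7.61 to 22.0 TPM and was not apart either. IRF3 was thus nearly even across the lines, while IRF7 and IRF9 were low in CHLA 05. The calls of IRF7 and IRF9 as lowest in CHLA 05 were lost with the most abundant transcript alone. By mean over the lines, IRF9 was led by a transcript with a retained intron, and IRF3 and IRF7 by transcripts annotated for nonsense-mediated decay. The gene levels of these factors thus include RNA that need not code for the full protein.

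**Figure D3:**
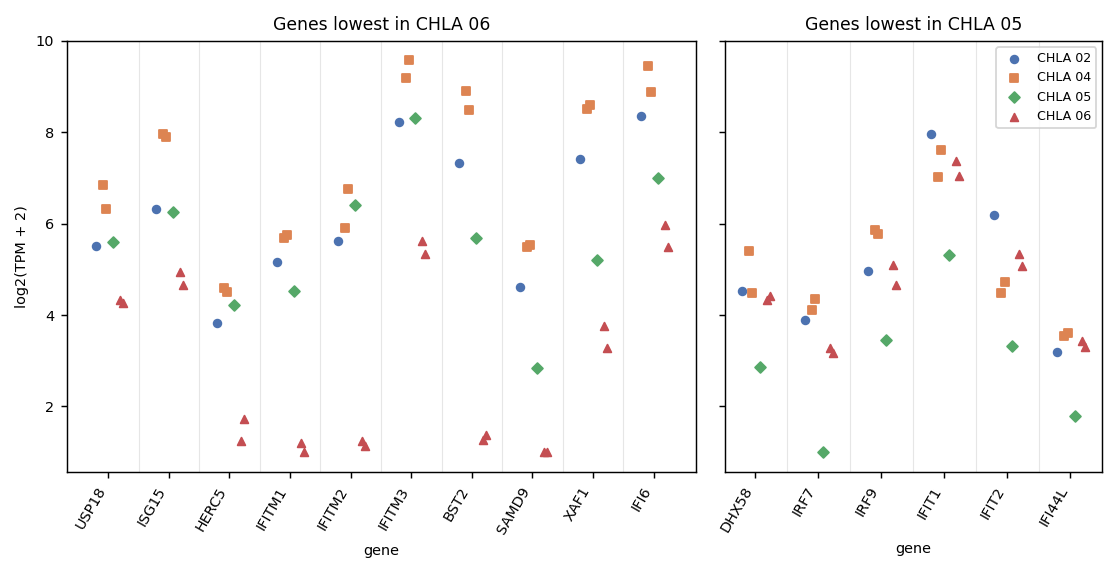
Values of log2(TPM + 2) per library (points; symbols and colors give the line) for the 10 genes lowest in CHLA 06 (left) and the 6 lowest in CHLA 05 (right). Both CHLA 06 libraries lie at least 1 unit below all other points on the left, and the single CHLA 05 library does so on the right.

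Regulators and editing genes were the most abundant group. ADAR, on chromosome 1 from 154582062 to 154627999, was at 361, 539.7, 547, 437, 304 and 268 TPM. CHLA 04 was highest and CHLA 06 lowest, 0.92 log2 units apart and under the limit for a call. ISG15, a ubiquitin-like protein that is conjugated to other proteins, was at 77.6, 248, 237, 74.8, 28.7 and 23.4 TPM. It was called both highest in CHLA 04 and lowest in CHLA 06, with a ratio of 9.06 in RPM (interval 8.02 to 10.3). Its neighbor HES4 was also low in CHLA 06, at 68.8, 268, 155, 57.3, 5.97 and 6.59 TPM. HES4 lies 0.966 kb from the annotated span of ISG15, which begins at 1001138. The ISG15 promoter shown above, at 1013247 to 1013546, is much farther from HES4. AGRN, 5.58 kb from ISG15 on the other side, was at 65.0 and 59.4 TPM in CHLA 06 and at 80.0 to 178 TPM in the other libraries. USP18, which removes ISG15 and dampens signaling at the interferon receptor, was at 43.5, 112, 78.3, 46.8, 18.02 and 17.3 TPM and was also lowest in CHLA 06. HERC5, the ligase that attaches ISG15, was at 12.2, 22.2, 20.9, 16.5, 0.361 and 1.33 TPM. It rested on 46 reads in CHLA 06 against 827 in CHLA 04, a ratio of 25.6 (interval 18.99 to 35.2). The conjugate, its ligase and its protease were thus all lowest in the same line. HERC6, next to HERC5 and in the same family, was at 6.72 to 17.6 TPM with CHLA 06 at 9.13 and 9.36 TPM. TRIM25, a ubiquitin ligase for RIG-I, and PARP9, which acts with DTX3L, were at 39.1 to 54.2 and 16.0 to 32.7 TPM, and no line was apart from another for either.

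The IFIT proteins bind viral RNA with foreign 5′ ends and lie together on chromosome 10. IFIT1 was at 248, 128, 194, 37.5, 164 and 130.2 TPM. CHLA 05 was 6.88-fold below CHLA 02 in RPM (interval 6.25 to 7.58), and CHLA 06 was within the range of CHLA 04. IFIT2 was at 71.0, 20.4, 24.6, 8.08, 38.6 and 31.5 TPM, again lowest in CHLA 05. IFIT3 was at 32.7, 17.5, 17.2, 2.85, 6.53 and 6.71 TPM, and there CHLA 06 was closer to CHLA 05 than to CHLA 04. IFIT5 was at 35.7 to 79.0 TPM, and CHLA 05 and replicate 1 of CHLA 04 had nearly the same level. LIPA, 0.029 kb from IFIT5, was also high in CHLA 02 and CHLA 06, at 982, 113, 190, 101, 852 and 1207 TPM. All 4 IFIT genes had at least 1 TPM in every library and their highest mean in CHLA 02 and lowest in CHLA 05.

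The IFITM proteins sit in membranes and hinder the fusion of enveloped viruses, and all 3 were lowest in CHLA 06. IFITM1, on chromosome 11, was at 33.6, 49.8, 51.9, 21.1, 0.304 and 0 TPM, with 2 reads in CHLA 06 and 468 in CHLA 04. The ratio was 333 in RPM, with an interval of 91.6 to 2756. IFITM2 was at 47.5, 58.1, 106, 82.5, 0.365 and 0.185 TPM, and its highest line was CHLA 05 on the log2 scale. IFITM3 was at 299, 584.5, 761, 317, 47.2 and 38.4 TPM, and so it remained present in CHLA 06 at 15.9-fold below CHLA 04 (interval 14.6 to 17.3). IFITM1 and IFITM2 share exonic bases on the same strand and the 3 genes are near-identical in part, so that reads could be split among them. The sum over the family was 380.1, 692, 919, 421, 47.9 and 38.6 TPM, so that CHLA 06 was lowest for the sum as well. B4GALNT4, 42.3 kb from IFITM3, had its lowest levels in CHLA 06 too, at 38.8, 145, 54.9, 32.4, 6.71 and 7.67 TPM. ATHL1, 11.5 kb from IFITM2, was at 22.0 and 23.7 TPM in CHLA 06 and had its lowest level in CHLA 05, at 16.6 TPM.

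BST2 had the widest range of the 45 genes, 7.38 log2 units, followed by IFITM2 at 5.22, XAF1 at 5.04, IFITM1 at 4.62 and SAMD9 at 4.50. BST2, or tetherin, holds budding enveloped viruses, retroviruses among them, at the cell surface, and was at 159.6, 474, 358, 49.9, 0.408 and 0.574 TPM. CHLA 06 had 2 and 5 reads, and the ratio of CHLA 04 to CHLA 06 was 919.8 (interval 446 to 2289). The gene MVB12A, 0.074 kb from BST2, was at 39.5 and 50.02 TPM in CHLA 06 and at 45.3 to 62.1 TPM in the other libraries. SAMD9, an antiviral and growth-restraining protein, was at 22.4, 42.7, 44.5, 5.202, 0.0191 and 0 TPM. A single read of SAMD9 was found in the 2 CHLA 06 libraries, against 3315 in CHLA 04. SAMD9L, its neighbor and paralog, had at most 9 reads in a library. XAF1, a pro-apoptotic interferon target, was at 169.9, 363, 384, 35.1, 11.5 and 7.71 TPM, highest in CHLA 04 and lowest in CHLA 06. FBXO39, 0.576 kb from XAF1, had the same order of lines, at 5.23, 18.2, 13.04, 1.83, 0.795 and 0.349 TPM. The call of XAF1 as highest in CHLA 04 was lost under quantile normalization, under median-ratio scaling and with the most abundant transcript alone. For BST2, SAMD9 and XAF1, CHLA 05 was above CHLA 06 and below CHLA 02 and CHLA 04 each time.

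Several other effectors were low in all lines. RSAD2, or viperin, did not exceed 1.82 TPM, and CMPK2, which overlaps it on the opposite strand, was at 0.410 to 5.23 TPM. ISG20, an exonuclease, was at 1.71 to 5.75 TPM. No line was apart from another for these genes on the scale log2(TPM + 2), but CMPK2 was apart with a pseudocount of 1 or 0.1 and RSAD2 with 0.1. MX2, a restriction factor of retroviruses in the nucleus, had a single read, in replicate 2 of CHLA 04. MX1, a dynamin-like GTPase against many RNA viruses, was at 45.3, 3.66, 2.83, 1.16, 4.48 and 5.24 TPM. CHLA 02 was 54.2-fold above CHLA 05 in RPM (interval 30.8 to 105) and above every other library.

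Among the IFI genes, IFI6 was the most abundant. IFI6, a mitochondrial and reticulum protein that restrains flaviviruses, was at 324, 693, 470.0, 126, 60.7 and 42.7 TPM and was lowest in CHLA 06. That call was lost under quantile normalization and under median-ratio scaling. IFI27 was at 2.56, 32.4, 28.6, 2.10, 0.840 and 1.49 TPM and was highest in CHLA 04, whereas CHLA 02 was near CHLA 05. Its neighbors IFI27L1 and IFI27L2 also had their highest levels in CHLA 04, at 38.6 and 20.4 TPM and at 66.4 and 27.3 TPM. IFI44 was at 25.05, 32.9, 28.6, 4.06, 4.70 and 3.95 TPM, and CHLA 05 and CHLA 06 overlapped. IFI44L, which resembles it, was at 7.12, 9.72, 10.2, 1.45, 8.75 and 7.90 TPM and was low in CHLA 05 alone, a call that was lost with the most abundant transcript. IFI35 was at 37.8, 25.8, 20.9, 11.2, 35.1 and 33.7 TPM, with its lowest level in CHLA 05 too.

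CHLA 02 exceeded the weighted sum of the other lines for most genes of the list. Of the 40 tested genes, 33 (82.5%) were above the sum, against 43.0% of all tested genes, and the median excess was 0.37 log2 units against -0.050. More than 1 log2 unit above it were MX1, OAS2, IFIT3, IFIT2 and OAS1, that is 5 of 40 against a background of 1%. IFI27 alone was more than 1 unit below (background 1.38%). MX1 was measured at 45.3 TPM where the sum was 4.10 TPM, OAS2 at 32.3 against 6.00 TPM, and IFIT3 at 32.7 against 9.55 TPM. MX1 and OAS2 were also among the 10 genes of all 16343 that were called highest in CHLA 02. The levels of BST2, IFITM3 and XAF1 in CHLA 02 were within 1 log2 unit of the sum.

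**Figure D4:**
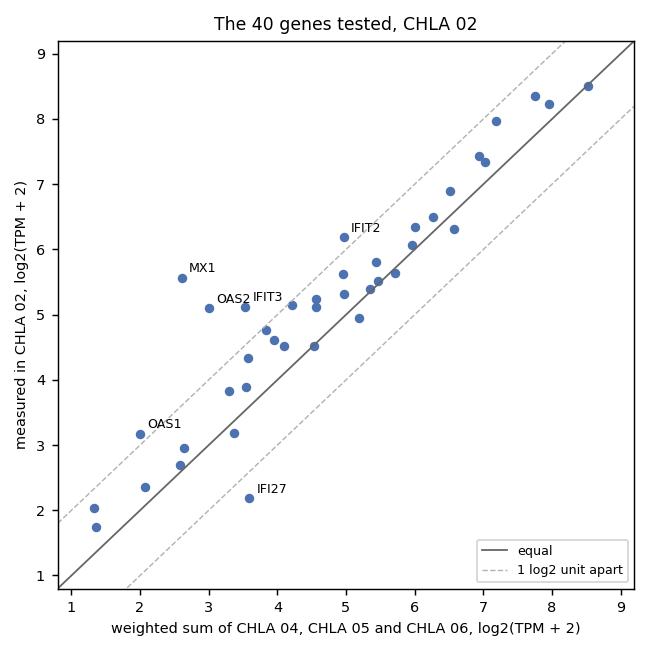
Level of the 40 tested genes in CHLA 02 (vertical axis) against the sum of 0.302 times CHLA 04, 0.0493 times CHLA 05 and 0.631 times CHLA 06 (horizontal axis), both as log2(TPM + 2). The solid line marks equal values and the dashed lines a distance of 1 log2 unit, which MX1, OAS2, IFIT3, IFIT2 and OAS1 exceeded upwards and IFI27 downwards.

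The ligands of the pathway were near absent. None of 21 interferon genes reached 1 TPM in any library, and 14 were at 0 in all of them. The highest was IFNA5 at 0.479 TPM in replicate 1 of CHLA 04, and genes of the IFNA family are near-identical. The receptors were present, with IFNAR1 at 28.5 to 49.9 TPM and IFNAR2 at 41.6, 12.8, 18.5, 31.1, 56.3 and 47.8 TPM. IFNAR2 was thus higher in CHLA 06 than in CHLA 04, the reverse of ISG15 and BST2. Of 12 receptor and JAK-STAT genes, 9 were at 10 TPM or more in all libraries. The inhibitor SOCS1 was lowest in CHLA 04, and the kinase JAK1 was highest in CHLA 05 at 133 TPM against 37.1 to 55.5 TPM. None of the 12 was lowest in CHLA 05 (background 0.838%) or in CHLA 06 (background 4.2%), which for a list this short is near the background.

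Of 22 further sensing genes, 11 were at 10 TPM or more in all libraries and 1, TLR8, was at 0 in all. The highest by mean was ZC3HAV1, or ZAP, which binds viral RNA and leads to its decay, at 45.2 to 94.2 TPM. IKBKE, a kinase of IRF3 and IRF7, was the gene lowest in CHLA 04, at 10.3, 0.338, 0.490, 5.204, 6.00 and 8.80 TPM. TICAM1, the adaptor of TLR3, was highest in CHLA 05 at 43.3 TPM. Of 32 further interferon-stimulated genes, under 33 identifiers, 13 identifiers were at 10 TPM or more in all libraries, RNF213 was the highest at 114 to 307 TPM and EPSTI1 was at 0 in all. TRIM22 was highest in CHLA 04 at 67.3 and 52.5 TPM, and GBP1 was lowest in CHLA 05 at 3.62 TPM. None of the 28 tested identifiers of that list was called lowest in CHLA 06 (background 4.2%). GBP5, given below, was nevertheless not detected in CHLA 06. It was not called because its level in CHLA 05 was low as well.

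The transcripts of ADAR were compared because its long form is interferon-inducible. The most abundant was ENST00000368474, which encodes the long form of 1226 amino acids, at 126, 179.6, 194, 152, 95.9 and 87.3 TPM. It made up 31.5% to 35.5% of the ADAR level in each library, so that the share of this single transcript was nearly even across the lines. The second by mean was ENST00000463920, a transcript with a retained intron, at 46.0 to 129.7 TPM and 17.2% to 24.0%. The third was ENST00000529168, which made up 13.3% to 16.4% in the other lines. In CHLA 06 it made up 20.6% and 23.1%, and at 62.7 and 61.8 TPM it exceeded the second. As quantified by the authors this transcript was 3585 bases long, shorter than its 3600 coding bases in the reference. The length of its protein is therefore not given. ENST00000368471, added after its values were seen, encodes the short constitutive form of 931 amino acids and was at 29.9 to 52.3 TPM. Its share was 14.5%, 5.55%, 8.64%, 11.4%, 12.4% and 14.8%, lowest in CHLA 04, so that the shares of the coding transcripts were not all even. The most abundant transcript differed between lines for 19 of the 45 genes, but none of them had a leading transcript of 10 TPM or more in every line. In IFIT3, ENST00000371811 led in CHLA 02 at 23.8 TPM and ENST00000371818 led in CHLA 04 at 13.6 and 11.4 TPM. How reads shared by transcripts of a gene were divided is not given in the sources used here, so transcript levels are less certain than gene levels.

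Elements of endogenous retroviruses lay in most of these genes, as in most genes tested. Of the 40 tested genes 30 (75%) overlapped a long terminal repeat (LTR) element, against 67.6% of all tested genes, whose median span of 31.0 kb was longer than the 18.7 kb of the 40. Of 720177 LTR elements, 257 overlapped 35 of the 45 genes, 51 of them touched an exon, and 75 were above 0 in a library. LTR values were scaled over LTR elements alone and cannot be set against gene TPM. The highest was an MLT1A0 element in an exon of MAVS, at chromosome 20 from 3873550 to 3873828, with 407 to 584 LTR TPM. Next were an ERV3-16A3_I-int fragment in an exon of OAS3 (chromosome 12, 112972697 to 112972875), at 166 to 683 LTR TPM, and a MER21C element in an exon of TRIM25 (chromosome 17, 56887680 to 56888380), at 160.01 to 265.0 LTR TPM. The technical replicates of CHLA 04 gave 239 and 683 LTR TPM for the OAS3 fragment, a spread as wide as that between lines. The remaining 2 of the 5 highest were MER21B elements in introns of IFI6, on chromosome 1 from 27670586 to 27670981 and from 27669967 to 27670291. They were at 181, 138, 184, 63.8, 12.9 and 31.5 and at 104, 177, 124, 30.4, 15.8 and 17.7 LTR TPM. Both were lowest in CHLA 06, as IFI6 was, and all 5 lay on the strand of their gene. Reads of the host transcript and reads of an element in it cannot be told apart.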

How the data were processed

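RNA of 4 AT/RT cell lines was sequenced as 6 libraries with a stranded total RNA kit in paired reads of 125 bp. After trimming with Trimmomatic and mapping to GRCh38, the authors deposited TPM per Ensembl transcript and, from a separate mapping, TPM per RepeatMasker LTR element. Program versions of the mapping, and whether strand was used in counting, are not given in the sources used here. Of the 45 genes, 10 share exonic bases with a gene on the opposite strand and 3 with one on the same strand.

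Gene TPM was summed over transcripts by gene identifier. TPM times transcript length fell within 0.05 of a whole multiple of a fixed step for at least 99.65% of values, and these multiples were taken as reads. Depth was 10265899 to 20520229 reads per library. Ratios of RPM (reads of a gene scaled to those of its library) have exact 95% binomial intervals, which cover counting error only. The recovery and the calls were tested on simulated data. Fits of each line as a sum of the other lines used least squares with line weights of at least 0, over 16343 genes. Each gene was weighted down by its mean TPM. Promoters came from a RefSeq table of GRCh38.p14, and coding lengths from GENCODE annotation by transcript identifier, 2 tables other than the authors'. Python 3.11.15, pandas 2.3.3 and scipy 1.17.1 were used.

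The genes and gene lists were chosen with earlier results of these data known. All 45 genes are named. Of the other lists, genes called by the rule of size, and the highest or those at 0, are named except for genes not reported here, whereas neighbors, overlapping genes and single genes such as IFNAR2 were chosen after their values were seen. The CHLA 02 comparison and the omission of that library were also added after the data were seen. Alternatives were other pseudocounts, other limits for a call, means of technical replicates, quantile normalization, median-ratio scaling, no filter, the most abundant transcript and leaving out each technical replicate.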

Additional observations from a re-analysis of the deposited data

How the results depend on the processing

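Counts changed by over 1.5 times in few settings. With a pseudocount of 0.1, 2 genes were lowest in CHLA 04 and 4 were higher in CHLA 06 than in CHLA 04. With a limit of 1.5-fold in place of 2-fold, 4 genes were highest in CHLA 02, 9 were highest in CHLA 04 and 1 was lowest in CHLA 04. With a limit of 3-fold, the genes called in any line fell from 19 to 12, those highest in CHLA 04 to 2, those lowest in CHLA 05 to 2, those lowest in CHLA 06 to 6, and those higher in CHLA 06 than in CHLA 04 to 1. Quantile normalization left 2 genes highest in CHLA 04, BST2 and XAF1 being lost. The most abundant transcript alone left 3 genes lowest in CHLA 05, with IFI44L, IRF7 and IRF9 lost, and placed 4 higher in CHLA 06 than in CHLA 04. Without the CHLA 02 library, 10 genes were highest in CHLA 04 and 1 in CHLA 06. Means of technical replicates and no filter moved no count by that much.

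The median for CHLA 05 was 3.314 with a pseudocount of 1, 3.177 with 0.1, 3.309 after quantile normalization and 3.007 with the most abundant transcript. For CHLA 06 the same settings gave 3.222, 3.075, 3.523 and 3.001. The most abundant transcript gave 4.348 for CHLA 02 and 3.855 for CHLA 04. Median-ratio scaling shifted the median of all genes by -0.132 to 0.124 log2 units and gave 4.831 for CHLA 04. Leaving out a technical replicate gave 4.929 to 5.105 for CHLA 04. No difference between the highest and lowest line of a called gene turned its direction. Genes under 10 reads in a line, such as BST2, SAMD9, IFITM1 and IFITM2 in CHLA 06, have ratios limited by depth. No paired analysis was possible because every line was 1 biological sample and replicate numbers mark technical replicates.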

Other observations

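The guanylate-binding proteins, GTPases that rise mainly with interferon gamma and act on membranes of invading microbes, did not share an order of lines. GBP5 was at 66.8, 51.4, 60.03, 1.36, 0 and 0 TPM in the library order of the text, high in CHLA 02 and CHLA 04 and not detected in CHLA 06. GBP3 was higher in CHLA 06 than in CHLA 04, at 14.8, 1.62, 0.413, 1.25, 12.5 and 11.5 TPM. GBP1 was at 44.4, 22.6, 10.9, 3.62, 35.3 and 28.2 TPM, and GBP2 and GBP4 did not exceed 2.17 and 1.60 TPM.

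SP100, a nuclear body protein, and NMI, an interactor of STAT proteins, were low in CHLA 04 and CHLA 05 and high in CHLA 02 and CHLA 06. SP100 was at 59.0, 0, 0.531, 1.64, 106 and 84.6 TPM, and NMI was at 17.1, 0.954, 2.77, 1.23, 17.97 and 19.05 TPM. MYD88, the adaptor of most Toll-like receptors, was at 29.0, 2.85, 1.78, 1.003, 58.8 and 53.5 TPM. AIM2 and IFI16, sensors of DNA, had their highest levels in CHLA 06, at 6.27 and 5.21 TPM and at 4.09 and 4.81 TPM, whereas BST2 and IFITM1 were lowest there. Of the interferon-induced chemokines, CXCL10 did not exceed 0.636 TPM and CCL5 did not exceed 0.190 TPM. These genes were picked from the lists after their values were seen.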
